A study of Homo sapiens with 12 samples.

Results

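The Kruppel-like factors (KLF) are zinc finger transcription factors, and 10 of their genes, KLF2, KLF3, KLF4, KLF5, KLF6, KLF7, KLF9, KLF10, KLF11, and KLF13, were followed by gene symbol through the RNA sequencing counts of TIGK cells. They are 10 of the 58735 genes in the count table and of the 29789 genes with a count in at least 1 library. TIGK is a single line of gingival keratinocytes, the lining cells of the human gum, that was immortalized with telomerase. All cells were kept at 48 mM glucose in a medium made without arginine (Arg), and the 4 groups were control cells without added Arg at 24 h, cells given 500 µM Arg for 24 h, control cells at 48 h, and cells given Arg for 48 h. Each group had 3 libraries, replicates A, B, and C, so 12 libraries were compared. The sources used here do not say whether the replicates were separate cultures, so p values measure the spread between these libraries, which may be technical.

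KLF proteins bind GC-rich sites and CACCC sites in DNA through zinc fingers at their C-terminal end, and they differ in the partners recruited by the rest of the protein. KLF2, KLF4, KLF5, KLF6, and KLF7 are mostly known as activators, KLF3 represses through the corepressor CtBP, and KLF9, KLF10, KLF11, and KLF13 bind the corepressor SIN3A. In stratified epithelium, KLF5 is known from dividing basal cells, and KLF4 from the differentiating layers, where it is needed for the skin barrier.

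The genes lie on separate parts of the genome. On GRCh38, as the deposited table gives them, KLF4 (ENSG00000136826) spans positions 107484852 to 107490482 of chromosome 9, KLF9 (ENSG00000119138) positions 70384597 to 70414624 of the same chromosome, both on the minus strand, and KLF13 (ENSG00000169926) positions 31326855 to 31435665 of chromosome 15 on the plus strand. Their upstream sequences are shown because KLF4 was the member called with Arg at 24 h, and KLF9 and KLF13 rose with time in both control and Arg-treated cells. Each is the 250 bases before the RefSeq start on GRCh38.p14, printed 5′ to 3′ on the strand of the gene, with capitals for every GC box (GGGCGG) and CACCC box (CACCC) on either strand. The windows are chr9:107489770-107490019 for KLF4, chr9:70414658-70414907 for KLF9, and chr15:31326585-31326834 for KLF13. The KLF4 window lies inside the span that the deposited table gives for the gene. None of these windows holds an annotated exon of GENCODE.
KLF4: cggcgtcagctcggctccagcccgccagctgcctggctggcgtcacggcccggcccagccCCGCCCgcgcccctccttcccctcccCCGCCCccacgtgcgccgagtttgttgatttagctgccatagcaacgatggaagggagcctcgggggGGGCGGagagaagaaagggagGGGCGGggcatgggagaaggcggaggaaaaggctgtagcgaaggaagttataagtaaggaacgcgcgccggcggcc
KLF9: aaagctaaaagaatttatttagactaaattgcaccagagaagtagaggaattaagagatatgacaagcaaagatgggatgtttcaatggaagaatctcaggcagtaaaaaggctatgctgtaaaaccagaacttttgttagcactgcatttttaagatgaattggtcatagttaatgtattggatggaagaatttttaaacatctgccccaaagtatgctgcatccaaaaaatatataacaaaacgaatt
KLF13: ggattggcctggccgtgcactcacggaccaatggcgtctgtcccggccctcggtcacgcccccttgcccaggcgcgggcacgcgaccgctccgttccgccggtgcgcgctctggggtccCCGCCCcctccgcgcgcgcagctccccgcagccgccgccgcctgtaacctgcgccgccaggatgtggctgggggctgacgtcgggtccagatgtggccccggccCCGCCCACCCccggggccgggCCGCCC
The KLF4 window held 4 GC boxes and no CACCC box, with a GC content of 69.2%. The KLF13 window held 3 GC boxes and 1 CACCC box, with a GC content of 78.8%, and its CACCC box shares letters with a GC box. The KLF9 window held neither motif, and its GC content was 32.4%. Of 35116 RefSeq windows of this length, 42.6% held a GC box and 54.7% a CACCC box, counted the same way. RefSeq windows were found for 8 of the 10 members, and KLF3 and KLF10 had no entry. A motif match is a description of the letters and does not show a binding site.

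The libraries held between 16542243 and 19040964 counts, and the 10 genes together took 0.0631% to 0.0851% of them. All 10 passed edgeR's filter on low counts in every comparison. The chi-square per degree of freedom between replicates lay between 3.66 and 12.6, except for control replicate B at 48 h, which gave 20.9 and 23.9 against the other replicates of its group. That library was the highest of its group for 9 of the 10 KLF genes, KLF4 being the exception, and its summed KLF level was 831 CPM, the unit of level explained next, against 700 and 692 CPM in replicates A and C. Mitochondrial genes took 1.55% of its counts, the highest share of the 12 libraries. The 10 keratinocyte markers summed to between 43010 and 55560 CPM, led by KRT5, and none was at 0. The fibroblast markers summed to between 29.6 and 102 CPM, the melanocyte markers to between 1.03 and 3.05 CPM with TYR at 0 in all libraries, the endothelial markers to between 0.756 and 6.41 CPM, and the leukocyte markers to between 0.990 and 3.56 CPM. Overlapping genes took few counts: KLF3-AS1 had 65 counts against 20634 for KLF3, and KLF7-IT1 had 54 counts against 10720 for KLF7. Whether counting used the strand is not given in the sources used here, so these overlapping reads cannot be told apart. The pseudogene KLF4P1 had 3 counts.

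Levels are given as CPM, the counts of a gene scaled to a common library size after TMM normalization, and levels of different genes were compared only as CPM per kilobase of the deposited exonic length. KLF5 was the highest of the 10 genes per kilobase in every group, at 58.0 ± 5.07 CPM per kilobase (SD, n = 3) in control cells at 24 h, 61.1 ± 1.14 with Arg at 24 h, 64.3 ± 10.5 in control cells at 48 h, and 67.3 ± 1.49 with Arg at 48 h. It made up 41.0% to 45.2% of the sum over the 10 genes. KLF2 was the lowest in every group, at 1.87 ± 0.377, 1.18 ± 0.212, 1.65 ± 0.369, and 1.30 ± 0.343 CPM per kilobase (SD, n = 3), in the same order of groups. Neither gene's libraries overlapped those of its neighbour in the order.

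In control cells at 24 h, KLF6 (16.3), KLF10 (15.6), KLF3 (15.0), and KLF4 (14.2 CPM per kilobase) came after KLF5, and each overlapped the next. KLF13 (6.64), KLF11 (5.53), and KLF7 (4.79 CPM per kilobase) followed, each also overlapping the next, and KLF9 (3.58 CPM per kilobase) came before KLF2. With Arg at 24 h, KLF6 and KLF10 overlapped, KLF3 and KLF4 stood apart below them at 12.8 and 10.4 CPM per kilobase, and KLF7, KLF11, and KLF9 overlapped in turn. By 48 h, KLF10 was the second highest in both groups, at 18.6 CPM per kilobase in control cells, where it overlapped KLF3, and 18.8 with Arg, where it did not. KLF9, KLF11, and KLF7 overlapped in turn in both 48 h groups.

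**Figure D1:**
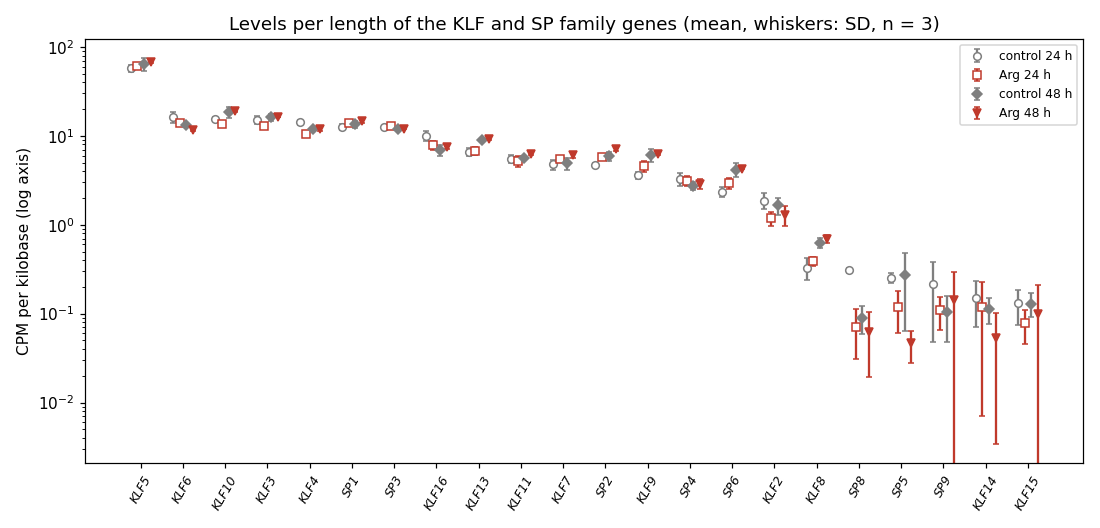
Levels of the 10 KLF genes and the other KLF and SP genes in CPM per kilobase (log axis), as means with whiskers for the SD (n = 3) in each group. Genes with a mean under 0.1 in every group are not drawn, and a whisker that would reach below 0 runs off the axis. KLF5 stands at 58.0 to 67.3 CPM per kilobase, above every other gene drawn.

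The same zinc finger family holds other KLF genes and the SP genes, of which 16 were listed. KLF17 and SP7 had no counts in any library, and KLF1, KLF12, KLF14, and KLF15 stayed under 1 CPM in each. KLF8, a repressor related to KLF3, lay between 2.97 ± 0.811 CPM (control, 24 h) and 6.28 ± 0.645 CPM (Arg, 48 h; SD, n = 3). KLF16 lay between 20.5 ± 2.89 and 29.7 ± 4.04 CPM (SD, n = 3). SP1 and SP3, which bind the same GC boxes and are made in most cells, had group means of 12.7 to 14.7 and 12.04 to 12.9 CPM per kilobase. These are levels below those of KLF5 and near those of KLF3 and KLF4.

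**Figure D2:**
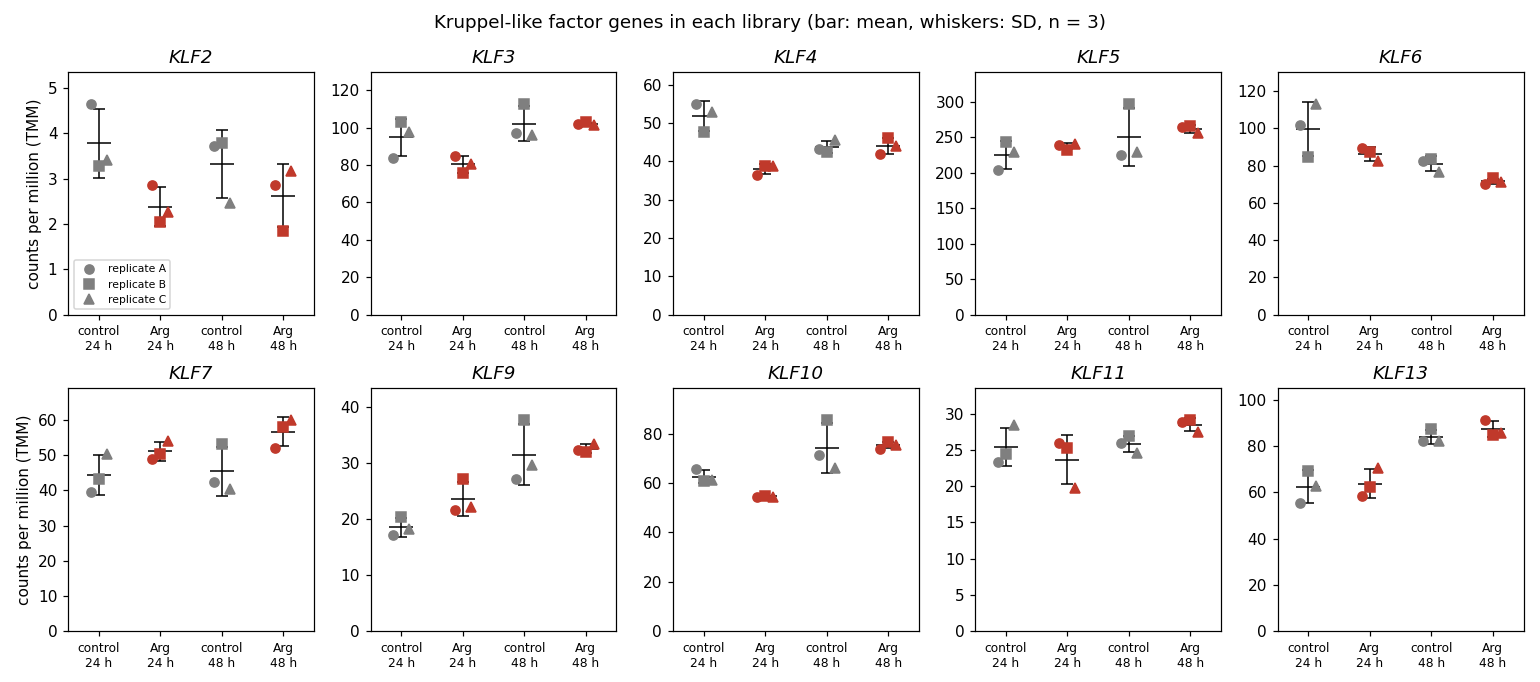
CPM after TMM normalization of each KLF gene in the 12 libraries, with a symbol for each replicate, a bar for the mean, and whiskers for the SD (n = 3), on axes that start at 0. For KLF4, the Arg-treated libraries at 24 h (36.4 to 38.8 CPM) lie below all others, and control replicate B at 48 h is the highest of its group for every gene but KLF4.

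Arg and control libraries were first compared at 24 h, the earlier time at which the response to Arg was measured. KLF4 was the 1 gene of the 10 called at this time, and it fell by 26.8%. KLF2, KLF3, KLF6, and KLF10 had lower means with Arg and KLF9 a higher mean, without passing the adjusted threshold. KLF5, KLF11, and KLF13 had differences within 0.11 on the log2 scale. A gene was called at an adjusted p under 0.05 from edgeR's quasi-likelihood test, with Benjamini-Hochberg adjustment across every gene tested in that comparison, and every adjusted p below is of this kind unless another tool is named. The 1 call among 10 genes stands beside 6.63% of the 14279 genes tested. At an unadjusted p under 0.05, 6 of the 10 passed, beside 22.8% of all genes. The median log2 fold change of the 10 was -0.15, and that of all genes tested was 0.0030. The mitochondrial share of counts also separated the groups, at 1.20% to 1.30% in control libraries and 0.624% to 0.802% with Arg. The 6 fibroblast markers summed to 33.1 to 53.4 CPM in the control and 29.6 to 40.8 CPM with Arg. Of the 3 that were tested, DCN was called as lower (-0.70, SE 0.18, adjusted p = 0.0294). COL1A1 and LUM had log2 fold changes of 0.06 and 0.10, with adjusted p values of 0.853 and 0.936. The part of the mitochondrial share or of the fibroblast markers in the KLF values was not tested.

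KLF4, which can halt the cell cycle and drives late epithelial differentiation, had 55.0, 47.5, and 52.9 CPM in control replicates A, B, and C, and 36.4, 38.8, and 38.7 CPM in the Arg libraries. All Arg libraries were lower than all control libraries. The log2 fold change was -0.45 (SE 0.094, adjusted p = 0.00774), with a 95% interval from -0.65 to -0.25. Without control replicate A, it was -0.41 and the adjusted p was 0.0582, so the call rests in part on that library. Calls over all genes also went from 947 to 359 without it.

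Of the other activators, KLF2, best known from endothelial cells and resting lymphocytes, had 4.65, 3.27, and 3.42 CPM in the control and 2.86, 2.04, and 2.26 CPM in the Arg libraries. The groups did not overlap, but with 35 to 86 counts per library the spread was wide, and the log2 fold change was -0.67 (SE 0.27, adjusted p = 0.149). KLF6, an early response gene of tissue injury, had 102, 84.5, and 113 CPM in the control and 89.4, 87.3, and 82.2 CPM with Arg. The groups overlapped through control replicate B, and the log2 fold change was -0.21 (SE 0.10, adjusted p = 0.219). Without that replicate, KLF6 was called at -0.32 (adjusted p = 0.0272), and calls over all genes went from 947 to 1529.

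KLF5, which sustains division of basal epithelial cells, had 204, 243, and 230 CPM in the control and 240, 233, and 241 CPM with Arg. The Arg libraries lay within the control range, and the log2 fold change was 0.07 (SE 0.080, adjusted p = 0.626), with a 95% interval from -0.09 to 0.24. KLF7, best known from neurons, had 39.4, 43.1, and 50.5 CPM in the control and 49.0, 50.3, and 54.1 CPM with Arg. Control replicate C fell among the Arg libraries, and the log2 fold change was 0.21 (SE 0.10, adjusted p = 0.241).

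The CtBP-binding repressor KLF3 had 83.6, 103, and 97.5 CPM in the control and 84.9, 75.6, and 80.5 CPM with Arg. Control replicate A lay below Arg replicate A, and the log2 fold change was -0.24 (SE 0.093, adjusted p = 0.132).

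Among the SIN3A-binding members, KLF9, a target of glucocorticoid and thyroid hormone receptors, had 17.1, 20.4, and 18.1 CPM in the control and 21.5, 27.1, and 22.2 CPM with Arg. It was the only gene of the 10 whose Arg libraries all lay above the control libraries, and its log2 fold change was 0.35 (SE 0.13, adjusted p = 0.106). KLF10, an early target of TGF-beta signaling, had 65.9, 60.7, and 61.3 CPM in the control and 54.5, 54.8, and 54.5 CPM with Arg. The Arg libraries lay together below the control libraries, and the log2 fold change was -0.20 (SE 0.086, adjusted p = 0.175). KLF11, the close relative of KLF10, had 23.4, 24.4, and 28.4 CPM in the control and 25.9, 25.3, and 19.7 CPM with Arg, and KLF13, described in T lymphocytes as an activator of the chemokine gene CCL5, had 55.3, 69.3, and 62.9 CPM in the control and 58.3, 62.5, and 70.6 CPM with Arg. Both overlapped widely, with adjusted p values of 0.664 and 0.901. In all, 4 of the 10 genes did not overlap between the groups, with KLF9 higher and KLF2, KLF4, and KLF10 lower, beside 26.2% of all genes tested.

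At 48 h, none of the 10 genes was called between Arg and control cells. KLF7 had the smallest p, with a higher mean with Arg, and KLF6 came next, with a lower mean. KLF4, which had differed at 24 h, had nearly equal means of 43.8 ± 1.61 CPM in the control and 43.99 ± 1.99 CPM with Arg (SD, n = 3). The count of 0 from edgeR stands beside 0.117% of the 14562 genes tested, or 17 genes, and DESeq2 also called 0 of the 10. At an unadjusted p under 0.05, 2 of the 10 passed, beside 13.4% of all genes, and 2 did not overlap between the groups, beside 17.1%. The median log2 fold change of the 10 was 0.03, with 7 higher and 3 lower.

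KLF7 had 42.5, 53.3, and 40.4 CPM in control replicates A, B, and C at 48 h and 52.1, 58.0, and 60.1 CPM with Arg. Control replicate B lay among the Arg libraries. The log2 fold change was 0.32 (SE 0.11, unadjusted p = 0.0108, adjusted p = 0.236). Without control replicate B it was 0.45 (adjusted p = 0.000510), and with no filter on low counts KLF7 was called at an adjusted p of 0.0400.

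KLF5 had 225, 298, and 229 CPM in the control and 264, 266, and 256 CPM with Arg. Here too control replicate B was high, above all Arg libraries, while replicates A and C were below them. The log2 fold change was 0.06 (SE 0.095, adjusted p = 0.809), and without control replicate B it was 0.21 (adjusted p = 0.0125). That library moved the calls over all genes as well, which numbered 17 with it and 2365 without it.

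KLF6 had 82.7, 83.7, and 76.3 CPM in the control and 70.1, 73.0, and 71.3 CPM with Arg at 48 h. All Arg libraries were lower, and the log2 fold change was -0.18 (SE 0.070, adjusted p = 0.291). KLF11 was the reverse case, with 26.0, 26.8, and 24.6 CPM in the control and 28.8, 29.1, and 27.5 CPM with Arg, all higher, and a log2 fold change of 0.14 (SE 0.093, adjusted p = 0.546).

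KLF4 had 43.2, 42.5, and 45.6 CPM in the control and 42.0, 46.0, and 44.01 CPM with Arg, which interleaved. Its log2 fold change was 0.0041 (SE 0.079, adjusted p = 0.986), with a 95% interval from -0.17 to 0.18. The difference from the value at 24 h has its own test, given below, which did not call KLF4. KLF9 had 27.2, 37.7, and 29.6 CPM in the control and 32.3, 31.9, and 33.4 CPM with Arg, and KLF10 had 71.2, 85.6, and 65.9 CPM in the control and 73.9, 76.4, and 75.4 CPM with Arg. In both genes the Arg libraries lay between control replicate B above and replicates A and C below. KLF3, KLF10, and KLF13 had log2 fold changes of -0.0023, 0.02, and 0.06, with adjusted p values of 0.992, 0.958, and 0.760. KLF2 had 3.72, 3.78, and 2.46 CPM in the control and 2.87, 1.84, and 3.16 CPM with Arg, which overlapped (log2 fold change -0.34, SE 0.29, adjusted p = 0.647).

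**Figure D3:**
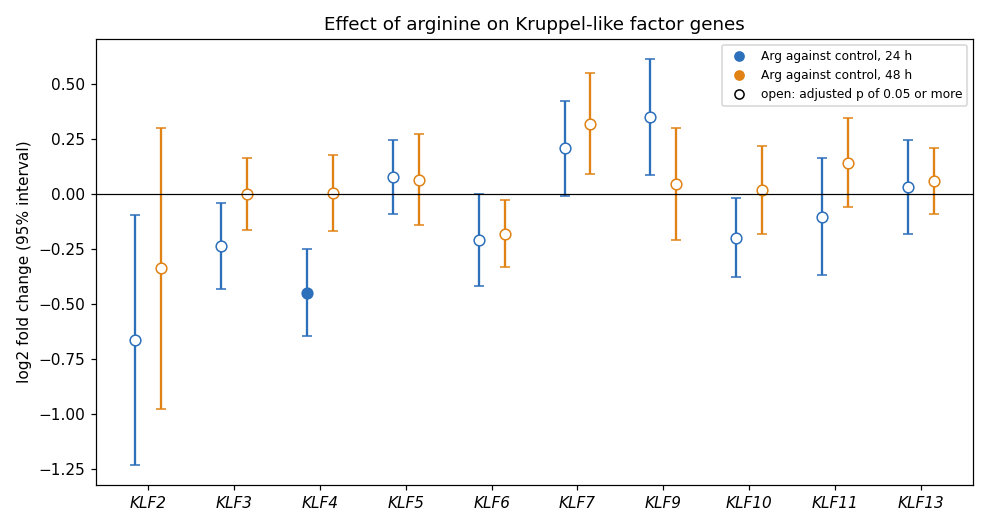
Log2 fold change of each KLF gene between Arg-treated and control cells at 24 h and 48 h, with whiskers for the 95% interval and filled symbols for an adjusted p under 0.05. Only KLF4 at 24 h, at -0.45, is filled, and its value at 48 h is 0.0041.

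Whether the Arg difference changed from 24 to 48 h was tested as an interaction over all 12 libraries. None of the 10 genes was called by edgeR, beside 0.0132% of the 15148 genes tested (2 genes), and none by DESeq2. At an unadjusted p under 0.05, 1 of the 10 passed, beside 6.87% of all genes, and it was KLF4. Its Arg difference was higher at 48 h than at 24 h by 0.46 on the log2 scale (SE 0.12, adjusted p = 0.331). The unadjusted p from edgeR was 0.00114, which ranked 52 among the genes tested. DESeq2 gave an adjusted p of 0.0908. KLF9 had an interaction of -0.30 (SE 0.18, adjusted p = 0.793), and KLF3, KLF10, and KLF11 had interactions of 0.24, 0.22, and 0.25, with adjusted p values of 0.765, 0.781, and 0.821. The median over the 10 was 0.17, beside -0.0057 over all genes.

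The change with time in culture was then compared within control cells and within Arg-treated cells. KLF9 and KLF13 were called as higher at 48 h than at 24 h in both. In Arg-treated cells KLF3 and KLF10 were also called as higher, and KLF6 as lower. In control cells, 2 of the 10 genes were called, both up, beside 19.9% of the 14449 genes tested. With Arg, 5 were called, 4 up and 1 down, beside 28.3% of 14398 genes. These comparisons share their 24 h and 48 h libraries with the Arg comparisons above, so their values are not independent of them. At an unadjusted p under 0.05, 5 genes passed in control cells (34.1% of all genes) and 8 with Arg (38.5%), and 5 and 8 genes did not overlap between the times, beside 39.0% and 42.2% of all genes.

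KLF9 rose from 18.5 ± 1.67 to 31.5 ± 5.49 CPM in control cells (SD, n = 3), a log2 fold change of 0.77 (SE 0.14, adjusted p = 0.00428), which was the greatest change with time among the 10 genes. With Arg it rose from 23.6 ± 3.07 to 32.5 ± 0.805 CPM (SD, n = 3), by 0.46 on the log2 scale (SE 0.10, adjusted p = 0.00230). All 48 h libraries were above the 24 h libraries in both arms, and the call stood when any single library was left out.

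KLF13 had 82.2, 87.3, and 82.0 CPM in control cells at 48 h and 91.3, 84.8, and 85.6 CPM with Arg, all above its 24 h libraries, which reached 70.6 CPM. The log2 fold change was 0.43 in control cells (SE 0.093, adjusted p = 0.00991) and 0.45 with Arg (SE 0.083, adjusted p = 0.000415). Without control replicate A at 24 h the former was 0.34 and the adjusted p was 0.0588, and calls over all genes in control cells went from 2882 to 828.

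KLF10 rose with Arg by 0.46 on the log2 scale (SE 0.075, adjusted p = 0.000118), from 54.6 ± 0.161 to 75.2 ± 1.25 CPM (SD, n = 3). In control cells its mean went from 62.6 ± 2.82 to 74.2 ± 10.2 CPM (SD, n = 3), at a log2 fold change of 0.25 (SE 0.10, adjusted p = 0.104). KLF3 rose with Arg from 80.3 ± 4.62 to 102 ± 0.623 CPM (SD, n = 3), by 0.35 on the log2 scale (SE 0.073, adjusted p = 0.00149), and in control cells its log2 fold change was 0.11 (adjusted p = 0.468). Its control libraries at 48 h, with 97.0, 113, and 96.0 CPM, overlapped those at 24 h, while the Arg libraries at 48 h, with 102, 103, and 102 CPM, lay together above those at 24 h. The interaction above is also the test of whether these time courses differ between the arms, and it called neither gene.

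KLF6 fell with Arg, with a log2 fold change of -0.27 (SE 0.074, adjusted p = 0.00961), and was the 1 member called as lower with time. In control cells its value was -0.30 (SE 0.10, adjusted p = 0.0604), and it was not called. KLF6 had an interaction of 0.03 (SE 0.13, adjusted p = 0.986), so its fall was not shown to differ between the arms. Its highest library at 48 h, 83.7 CPM, was below its lowest control library at 24 h, 84.5 CPM. The settings that called the control value included DESeq2, no filter on low counts, the fit of all 12 libraries, and leaving out control replicate B at 24 h.

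KLF4 had opposite signs in the 2 arms, with -0.24 in control cells (SE 0.089, adjusted p = 0.0778) and 0.21 with Arg (SE 0.085, adjusted p = 0.0682). The settings that called the former included the fit of all 12 libraries, at -0.24 (adjusted p = 0.0402), and leaving out control replicate B at 24 h, at -0.31 (adjusted p = 0.0336). Its libraries at 48 h did not overlap those at 24 h in either arm, and the 4 group means were 51.8 ± 3.88, 38.0 ± 1.33, 43.8 ± 1.61, and 43.99 ± 1.99 CPM (SD, n = 3) for control and Arg at 24 h and control and Arg at 48 h. KLF11 (0.27, adjusted p = 0.0708) and KLF5 (0.14, adjusted p = 0.103) had higher means at 48 h with Arg without being called, and their control log2 fold changes were 0.03 and 0.15. KLF7 (0.15 with Arg and 0.04 in control cells) and KLF2 (0.14 and -0.18) were not called either.

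With scaling by library size only, log2 fold changes with time shifted upward, with a median shift over all genes of 0.06 both in control cells and with Arg. The split of all calls then went from 1431 up and 1451 down to 1845 up and 1008 down in control cells, and from 2060 up and 2012 down to 2568 up and 1453 down with Arg. Under that scaling KLF4, KLF5, and KLF11 were also called as higher at 48 h with Arg, for 8 of the 10 genes in all. The sums of fibroblast and endothelial markers also differed between the times, while those of melanocyte and leukocyte markers overlapped. The 6 fibroblast markers, led by DCN, summed to between 29.6 and 53.4 CPM at 24 h and between 71.8 and 102 CPM at 48 h, and 3 of them stayed under 1 CPM. The 4 endothelial markers summed to at most 3.01 CPM at 24 h and at least 4.08 CPM at 48 h. The 4 melanocyte markers summed to at most 1.91 CPM at 24 h and at least 1.84 CPM at 48 h. For the 4 leukocyte markers, the sums were 1.34 to 3.555 CPM at 24 h and 0.990 to 3.564 CPM at 48 h. Their part in the KLF values was not tested. In bulk RNA, a change in the number of cells that express a gene and a change in RNA per cell cannot be told apart.

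**Figure D4:**
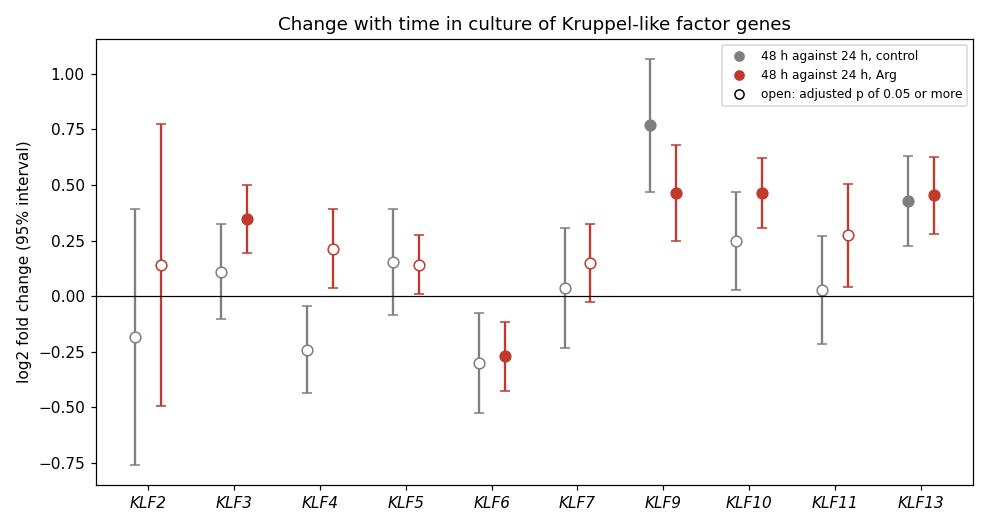
Log2 fold change of each KLF gene from 24 to 48 h in control and Arg-treated cells, with whiskers for the 95% interval and filled symbols for an adjusted p under 0.05. KLF9 and KLF13 are filled in both arms, KLF3, KLF6, and KLF10 with Arg only, and the symbols of KLF4 lie on opposite sides of 0.

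Over the 12 libraries, the KLF genes were also compared with each other by the Pearson correlation of their log2 CPM, as a description. KLF9 and KLF13 were the most alike pair (r = 0.87, n = 12), followed by KLF3 and KLF10 (r = 0.81, n = 12). KLF6 ran opposite to KLF13 (r = -0.80, n = 12) and KLF9 (r = -0.79, n = 12). These values share the group differences described above, and after the group means were removed they were 0.41, 0.32, -0.51, and -0.16. KLF3 and KLF5 had the highest correlation within groups, 0.89, where control replicate B at 48 h was the highest library for both.

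Among the 15148 genes, those most alike to KLF4 over the 12 libraries were ATF3 (r = 0.93), SEC14L1 (r = 0.93), PTPRE (r = 0.91), NUP62CL (r = 0.89), and ST7 (r = 0.89). These values share the group differences. After the group means were removed they were 0.73, 0.77, 0.86, 0.69, and 0.67. ATF3, a stress-induced transcription factor, had 13.8 to 26.9 CPM in control cells at 24 h and 7.51 to 9.07 CPM with Arg, then 9.07 to 13.5 and 11.3 to 11.6 CPM at 48 h. Its log2 fold change was -1.39 with Arg at 24 h, -0.03 with Arg at 48 h, -0.93 with time in control cells, and 0.43 with time in Arg-treated cells, the same signs as KLF4 except with Arg at 48 h, where both values were near 0. These genes were chosen for their likeness over the same libraries, so their values are a description. Those most alike to KLF7 were BRF2 (r = 0.95), ZNF93 (r = 0.92), FGF1 (r = 0.92), FAM117B (r = 0.91), and GNAQ (r = 0.90). Without the group means, their values were 0.90, 0.92, 0.93, 0.85, and 0.78. FGF1 was near the floor, at 0.226 to 1.38 CPM, and did not pass the filter on low counts with time in control cells. BRF2, a subunit used by RNA polymerase III, had 8.17 to 12.1 CPM in control cells and 12.6 to 14.5 CPM with Arg at 24 h, and none of these genes was called between Arg and control cells at either time.

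Genes around the KLF network were read from lists, each given by the number tested and called with Arg at 24 h. Over all 14279 genes tested, 6.63% were called in either direction and 22.8% had an unadjusted p under 0.05. Of the other KLF and SP genes, 1 of 9 tested was called, SP8, which was lower (log2 fold change -2.09, SE 0.54, adjusted p = 0.0268) at 1.14 ± 0.0843 CPM in the control and 0.265 ± 0.151 CPM with Arg (SD, n = 3). It had 18 to 22 counts in the control libraries and 2 to 7 with Arg, so it passed the filter on low counts through the group where it is higher, and the call is no support for a change of the list. It did not pass the filter at 48 h. The median of the list was 0.04. None of the 14 corepressors, coactivators, and ubiquitin ligases of KLF proteins was called by edgeR, and none had an unadjusted p under 0.05. The smallest p belonged to HDAC2, a deacetylase in the SIN3A complex, at -0.16 (SE 0.081, adjusted p = 0.238). None of 11 genes that act upstream of KLF transcription was called by edgeR, and 4 had an unadjusted p under 0.05. Among them, named after their values were seen, were SMAD3, which carries TGF-beta signals to the nucleus, MAPK7, and FOXO1, with log2 fold changes of 0.23, 0.31, and -0.27 and adjusted p values of 0.174, 0.201, and 0.202.

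The TGF-beta response list had a median of -0.20. Beside 6.63% of all genes called in either direction, 2 of its 11 genes fell and none rose. They were PMEPA1, a feedback inhibitor of the pathway (-1.37, SE 0.23, adjusted p = 0.00196), and the ligand gene TGFB1 (-0.41, SE 0.092, adjusted p = 0.0129). In the glucocorticoid response list, 3 of 10 fell and 1 rose, beside the same 6.63% of all genes, with a median of -0.12. Those that fell were DUSP1, a phosphatase of MAP kinases (-1.47, SE 0.11, adjusted p = 1.52e-07), TXNIP, an inhibitor of thioredoxin (-1.31, SE 0.10, adjusted p = 6.49e-07), and the metallothionein MT2A (-0.95, SE 0.12, adjusted p = 0.000124). The gene that rose, named after its value was seen, was TSC22D3, a glucocorticoid-induced leucine zipper protein (0.84, SE 0.13, adjusted p = 0.001004). KLF9 and KLF10, which answer to these hormones and ligands, were not called in the same comparison.

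Of the 14 immediate early genes, 7 fell with Arg at 24 h and none rose, beside 6.63% of all genes called in either direction. The median of the list was -0.48, beside 0.0030 over all genes. FOS went from 162 ± 34.9 to 38.9 ± 3.96 CPM (SD, n = 3; log2 fold change -2.06, SE 0.13, adjusted p = 4.26e-08), FOSB changed by -1.96 (SE 0.25, adjusted p = 0.000124), and ATF3 by -1.39. At 48 h, 1 of the 14 fell, beside 0.117% of all genes called in either direction. It was FOS (-0.94, SE 0.088, adjusted p = 0.000507), and the median of the list was -0.26. FOS was also the 1 gene of this list called in the interaction, at 1.11 (SE 0.17, adjusted p = 0.0229), beside 0.0132% of all genes. Of 10 cell cycle genes linked to KLF4 and KLF6, 1 fell with Arg at 24 h, beside 6.63% of all genes called in either direction. It was CDKN1C, an inhibitor of cyclin-dependent kinases (-1.57, SE 0.11, adjusted p = 1.39e-07). CDKN1C had 103 ± 4.63 CPM in the control and 34.8 ± 6.27 CPM with Arg (SD, n = 3), and the median of the list was 0.0026.

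Keratinocyte differentiation genes, some of which KLF4 is known to control, were read in the Arg and time comparisons. With Arg at 24 h, 1 of 16 rose, beside 6.63% of all genes called in either direction. It was PPL, which encodes a protein of the cornified envelope (0.54, SE 0.14, adjusted p = 0.0255), and the median was 0.34. PPL had 136 ± 31.0 CPM in the control and 198 ± 37.8 CPM with Arg (SD, n = 3). From 24 to 48 h, 10 of 17 rose and 1 fell in control cells, with a median of 0.89, beside 19.9% of all genes called, and 11 rose and 3 fell with Arg, with a median of 0.85, beside 28.3%. Whether the list differed between these comparisons was not tested. Those that fell, named after their values were seen, were SPRR1B in both arms (-0.34 in control cells and -0.70 with Arg) and SPRR1A (-0.72) and SPRR3 (-1.05) with Arg. All are genes of small proline-rich proteins of the cornified envelope. In control cells SPRR1A had -0.41 (adjusted p = 0.133), and SPRR3 had the opposite sign, at 0.89 (adjusted p = 0.0535). Neither was called there. In those same comparisons KLF4 was not called, and KLF9 and KLF13 rose.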

How the data were processed

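Poly(A) RNA of TIGK cells was sequenced from 12 libraries. The authors filtered reads with fastp, mapped them to GRCh38 with STAR, counted them per gene with featureCounts, and deposited raw counts with gene coordinates and exonic lengths. Tool versions, the annotation release, and the strand setting are not given in the sources used here. Every count column entered, with 0 columns unused. The labels gave each library's treatment and time.

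Pairs of groups were compared with edgeR 4.0.16 (R 4.3.3): TMM, filterByExpr, and the quasi-likelihood test, with Benjamini-Hochberg adjustment over all genes tested. The interaction used all 12 libraries. SE is the absolute log2 fold change divided by the square root of F. Correlations used log2 CPM (prior count 2). An exact permutation test was not used, since its smallest p for 3 against 3 libraries is 0.1. The scripts were tested on simulated data.

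All 10 members are named. From each list, at most 3 genes with the smallest p among those called with Arg at 24 h are named, or the 1 with the smallest p where none was called (1 such gene is not reported here). The 5 genes most alike are named for the members with the smallest p at 24 h and at 48 h. Members and lists were chosen with earlier results of these data known. Alternatives were DESeq2 1.42.0, its size factors in edgeR, no filter, library size only, at least 10 counts in every library, a replicate block, 1 model of all 12 libraries, and leaving out each library. Depths of 16542243 to 19040964 counts limit the precision for KLF2 most.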

Additional observations from a re-analysis of the deposited data

Results flagged for a closer look

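KLF4 was picked out because its Arg difference changed between the times. The log2 fold change with Arg at 48 h minus that at 24 h was 0.46 (SE 0.12, n = 3 libraries in each of 4 groups), with an interaction p of 0.00114 from edgeR and an adjusted p of 0.331 over 15148 genes, so it did not pass the adjusted threshold. The adjusted p ranged from 0.0908 to 0.334 over the other settings and from 0.131 to 0.722 when 1 library was left out. All control libraries were lower at 48 h than at 24 h, and all Arg libraries were higher at 48 h than at 24 h. Over all genes, 39.0% in control cells and 42.2% with Arg did not overlap between the times. KLF4 was picked out from these values, so they add no support.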

How the results depend on the processing

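The values of the 10 genes were recomputed under the alternatives. Over the settings other than leaving out a library, 326 values kept their direction and their side of the threshold, 11 were newly called, 0 lost a call, and 3 changed sign, all for KLF3 between Arg and control at 48 h (0.00048 by library size only, 0.0017 with the replicate block, and 0.00058 in 1 model of all 12 libraries). Of the 10 genes, 1 was called at 48 h with no filter (KLF7), 4 with time in control cells with the replicate block and 5 in 1 model of all 12 libraries (KLF4, KLF6, KLF9, KLF10, and KLF13), and 8 with time under Arg by library size only. The letters A, B, and C showed no clear pairing of the libraries. The correlations of same-letter deviations ran from -0.06 to 0.13 over the 4 comparisons. Each library correlated best with its own letter in 0 to 2 of 3 pairs. With 3 libraries per group, this check does not settle whether libraries of the same letter shared an effect. The replicate block called 924 genes with Arg at 24 h, 184 at 48 h (17 without it), 4044 with time in control cells, 3779 with time under Arg, and 2 in the interaction. It added KLF4 and KLF6 to the calls with time in control cells and changed no other call of the 10 genes. Over all genes at 48 h, DESeq2 called 184, the test with no filter 573, and 1 model of all 12 libraries 41, and in the interaction DESeq2 called 23 and the test with no filter 88.

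Leaving out 1 library gave 0 to 2 of the 10 genes called with Arg at 24 h, 0 to 2 at 48 h, and 1 to 4 and 5 to 6 with time in control and Arg-treated cells. All genes called ranged from 359 (without control replicate A) to 1529 (without control replicate B) at 24 h, from 6 to 2365 (without control replicate B) at 48 h, from 828 (without control replicate A at 24 h) to 3304 with time in control cells, from 2938 to 3669 with time under Arg, and from 0 to 46 (without control replicate B at 48 h) in the interaction. The calls at 24 h were also 438 without control replicate C and 402 and 381 without Arg replicates B and C, and those with time in control cells were 998 without control replicate C at 24 h and 1832 without control replicate A at 48 h. KLF11 was called with time under Arg without Arg replicate A at 24 h. Signs changed for these log2 fold changes when 1 library was left out: with Arg at 24 h, KLF11 (-0.18 to 0.0092) and KLF13 (-0.055 to 0.11); at 48 h, KLF3 (-0.045 to 0.078), KLF4 (-0.027 to 0.034), KLF5 (-0.0097 to 0.21), KLF9 (-0.052 to 0.20), and KLF10 (-0.064 to 0.13); with time in control cells, KLF7 (-0.095 to 0.13) and KLF11 (-0.031 to 0.11); with time under Arg, KLF2 (-0.0090 to 0.34); and in the interaction, KLF5 (-0.081 to 0.13), KLF6 (-0.069 to 0.15), and KLF13 (-0.043 to 0.11). The cause of these moves was not tested. None of these was called with all libraries. KLF2, with 31 to 86 counts per library, had the widest intervals, so differences of its size were not resolved at this depth.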
